A study of Mus musculus with 12 samples.

Results

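The genes described here build the nuclear pore and carry cargo through it. They were chosen by name, as the protein-coding genes whose symbol begins with *Nup* and a digit (nucleoporins), with *Kpna*, *Kpnb* or *Ipo* and a digit (importins), or with *Xpo* followed by a digit or t (exportins), which gave 41 of the 55401 genes in the count table. The rule used no measured value. A 42nd name that fits, *Kpna2-ps*, is a processed pseudogene and was left out.

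The libraries came from satellite cells, the Pax7+ stem cells of skeletal muscle, sorted from hind limbs. All mice carried *Cxcr4* FL/FL and the Pax7-ZsGreen reporter, and all received 80 mg/kg tamoxifen on 5 days. *Cxcr4* KO mice also carried *Pax7*-creERT2, so that deletion was limited to cells that express *Pax7*, and *Cxcr4* WT mice lacked cre. Quiescent libraries were made from freshly sorted cells (4 WT, 4 KO) and activated libraries from sorted cells kept in culture overnight (2 WT, 2 KO). The study used adult mice and counts its samples as independent mice. The labels do not tie single libraries to animals, so p-values measure the spread between these samples.

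The nuclear pore is an assembly of nucleoporins in the nuclear envelope: an outer and an inner ring of scaffold proteins, a channel lined by nucleoporins with phenylalanine-glycine repeats, filaments and factors on the cytoplasmic face, and a basket on the nuclear face. Importins bind proteins with a nuclear localization signal in the cytoplasm and exportins bind cargo in the nucleus, and the GTPase Ran, charged with GTP inside the nucleus, releases the former from their cargo and joins the latter to theirs. Satellite cells that leave quiescence enlarge and raise their synthesis of RNA and protein.

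By role the 41 genes were 6 of the outer ring (*Nup37*, *Nup43*, *Nup85*, *Nup107*, *Nup133*, *Nup160*), 5 of the inner ring (*Nup35*, *Nup93*, *Nup155*, *Nup188*, *Nup205*), 2 of the channel (*Nup54*, *Nup62*), 2 of the cytoplasmic face (*Nup88*, *Nup214*), *Nup98*, which sits on both faces, 2 of the basket (*Nup50*, *Nup153*) and 2 that span the membrane (*Nup210* and its paralog *Nup210l*). *Nup62cl* is a paralog of *Nup62* on the X chromosome. There were 6 importin alpha genes, the adaptors that recognize the classical localization signal (*Kpna1*, *Kpna2*, *Kpna3*, *Kpna4*, *Kpna6*, *Kpna7*), 8 importin beta genes, which dock at the pore (*Kpnb1*, *Ipo4*, *Ipo5*, *Ipo7*, *Ipo8*, *Ipo9*, *Ipo11*, *Ipo13*), and 6 exportins (*Xpo1*, *Xpo4*, *Xpo5*, *Xpo6*, *Xpo7*, *Xpot*).

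Upstream sequence was at hand for 32 of the 41 genes, in RefSeq windows on GRCm38.p6 from 250 bases before to 50 bases after a gene's start. The 250 bases before the start are shown for *Nup98*, a nucleoporin that fell in activated cells of both genotypes, and for *Xpo5*, *Xpo1*, *Ipo11* and *Xpot*, those with a window that rose most in WT. They are written 5′ to 3′ on the gene's strand, with capitals for 4 motifs searched on both strands: CACGTG (E-box), CCAAT or its reverse complement (CCAAT box), GGGCGG or its reverse complement (GC box) and TGCGCA (core of the motif of the factor NRF1). No match overlapped another motif in the 5 sequences.
*Xpo5* (chr17:46202561-46202810, plus strand): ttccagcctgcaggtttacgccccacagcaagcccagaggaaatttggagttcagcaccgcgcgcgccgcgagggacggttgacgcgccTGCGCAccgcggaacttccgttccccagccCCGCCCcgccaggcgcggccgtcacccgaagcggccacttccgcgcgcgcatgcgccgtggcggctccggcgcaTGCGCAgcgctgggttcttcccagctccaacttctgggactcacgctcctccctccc
*Xpo1* (chr11:23255791-23256040, plus strand): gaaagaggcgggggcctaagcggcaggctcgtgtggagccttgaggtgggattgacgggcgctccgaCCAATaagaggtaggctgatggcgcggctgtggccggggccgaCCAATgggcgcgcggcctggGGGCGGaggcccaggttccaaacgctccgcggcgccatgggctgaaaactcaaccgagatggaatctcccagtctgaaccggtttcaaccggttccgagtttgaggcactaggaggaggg
*Xpot* (chr10:121626333-121626582, minus strand): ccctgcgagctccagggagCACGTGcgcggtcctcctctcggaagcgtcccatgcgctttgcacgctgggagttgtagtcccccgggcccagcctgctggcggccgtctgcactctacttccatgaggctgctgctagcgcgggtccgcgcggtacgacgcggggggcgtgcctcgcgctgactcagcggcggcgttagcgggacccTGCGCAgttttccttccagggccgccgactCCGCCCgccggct
*Ipo11* (chr13:106936959-106937208, minus strand): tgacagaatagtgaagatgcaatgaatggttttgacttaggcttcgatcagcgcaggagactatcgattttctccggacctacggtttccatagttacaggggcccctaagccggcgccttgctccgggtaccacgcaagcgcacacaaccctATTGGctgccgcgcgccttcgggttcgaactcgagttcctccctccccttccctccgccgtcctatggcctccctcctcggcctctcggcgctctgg
*Nup98* (chr7:102210167-102210416, minus strand): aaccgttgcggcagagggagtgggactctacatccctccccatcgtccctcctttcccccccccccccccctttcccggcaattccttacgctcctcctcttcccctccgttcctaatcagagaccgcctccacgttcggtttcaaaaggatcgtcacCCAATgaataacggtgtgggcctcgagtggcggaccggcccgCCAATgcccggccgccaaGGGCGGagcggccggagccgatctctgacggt

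The GC box was found in 67.6% of the 37 windows of these genes and in 35.7% of all 32851 windows in the table. The CCAAT box was found in 56.8% against 37.4%, the NRF1 core in 21.6% against 7.76%, and the E-box in 16.2% against 7.15%. *Xpo5* held the NRF1 core at 161 and 57 bases before the start, and *Xpot* held it at 43 bases. *Xpo1* and *Nup98*, which moved in opposite directions in activated cells, each held 2 CCAAT boxes and 1 GC box in the bases shown. These shares are descriptions, with no test.

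Quiescent libraries held 12775593 to 23717013 counts and activated libraries 3172164 to 5427280, of which 0.222% to 0.372% lay on the 41 genes across all libraries. *Cxcr4*, the deleted gene, was at 59.1 to 112 CPM (counts scaled to the library's size) in quiescent WT and 12.5 to 21.2 CPM in quiescent KO libraries, and at 14.4 to 33.3 CPM in activated WT and 5.39 to 13.7 CPM in activated KO libraries. A single ribosomal RNA gene took 0.295% to 0.807% of the counts in quiescent and 11.5% to 40.3% in activated libraries, most in replicate 2 of either genotype. *Ddx3y*, on the Y chromosome, was at 289 to 570 CPM in quiescent and 0 to 2.28 CPM in activated libraries, while *Xist* was at 1.20 to 7.17 CPM and 451 to 817 CPM. State, sex, depth and ribosomal RNA therefore cannot be told apart in any comparison of activated with quiescent cells. The 9 satellite cell markers summed to 5143 to 8551 CPM in quiescent and 2316 to 3524 CPM in activated libraries, and none was at 0 in any group. The 6 markers of mature muscle fibre summed to 236 to 839 CPM in quiescent and 6026 to 14909 CPM in activated libraries. Endothelial markers (6 genes) reached 1103 CPM, fibroadipogenic markers (6 genes) 2966 CPM and blood cell markers (6 genes) 309 CPM in single quiescent libraries. In single activated libraries they reached 640, 730 and 52.9 CPM. The blood cell markers *Cd52* and *Tyrobp* were at 0 in activated WT, and no blood cell marker was at 0 in activated KO. The part of these cells in the results was not tested, and in bulk samples fewer cells of a type and less RNA per cell cannot be told apart.

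Levels per length spanned 3 orders of magnitude. In quiescent WT cells *Nup62* was highest, at 51.0 ± 12.3 CPM per kilobase of exon (SD, n = 4). It was followed by *Ipo5*, which imports ribosomal proteins and histones, at 38.8 ± 12.8 CPM per kilobase, and by *Kpnb1*, the partner of all importin alphas, at 35.7 ± 5.12 CPM per kilobase. *Nup62* was above the other 2 in each of the 4 libraries, while *Ipo5* and *Kpnb1* differed by less than their SD, and *Nup153*, of the basket, and *Kpna4* came next. At the other end lay *Nup43* of the outer ring, with 0 to 7 counts in any library. *Nup43* is widely expressed, and whether the counting missed reads of it was not tested, so that this level is uncertain. It did not pass the filter on low counts, so that 40 of the 41 genes were tested. *Nup62* was highest in all 4 groups, and in both activated groups *Kpnb1*, *Ipo5* and *Kpna3* followed it, in that order.

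**Figure D1:**
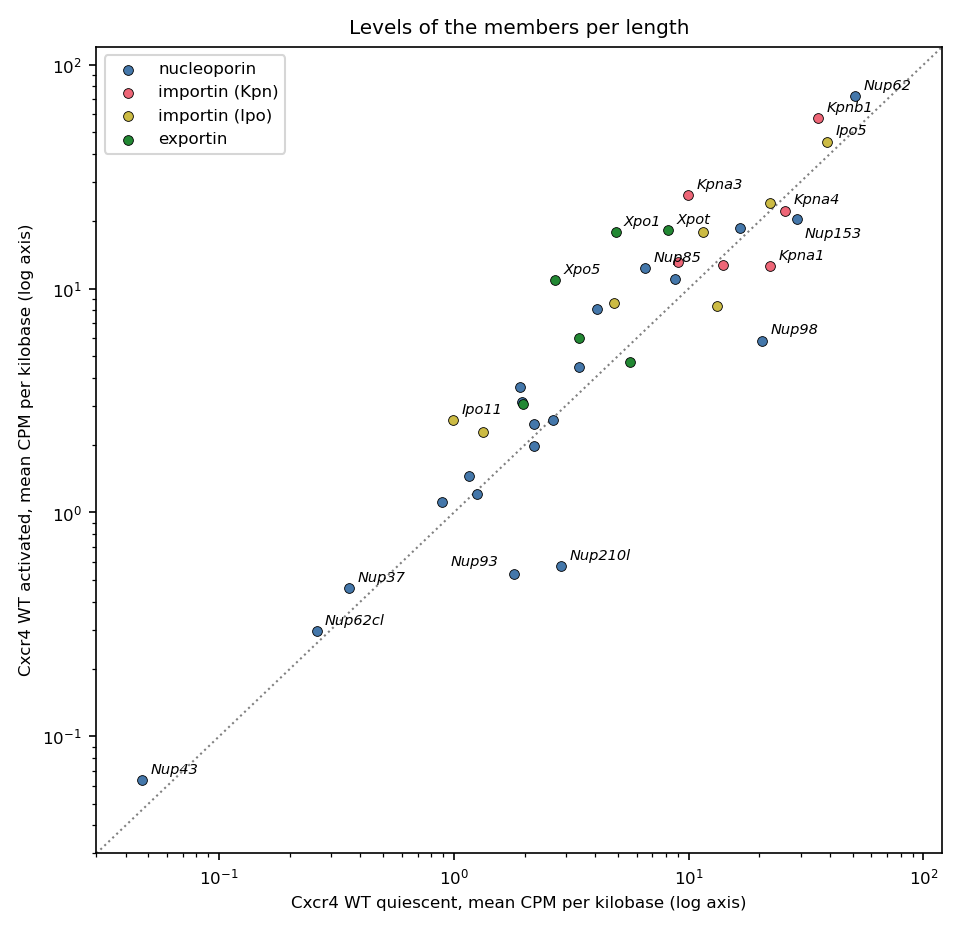
Mean CPM per kilobase of exon in *Cxcr4* WT quiescent (horizontal, 4 libraries) and *Cxcr4* WT activated cells (vertical, 2 libraries), both on log axes, 1 point a gene, with equal levels on the dotted line. *Xpo5*, *Xpo1*, *Xpot* and *Kpna3* lie above the line and *Nup98*, *Nup210l*, *Nup93* and *Kpna1* below it, and *Kpna7*, at 0 in activated cells, is not drawn.

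The first comparison asked what overnight activation did to these genes. In *Cxcr4* WT cells 13 of the 40 genes tested rose and 5 fell, at an adjusted p under 0.05 in edgeR's quasi-likelihood test. *Kpna7* is among those that fell although it passed the filter on low counts only through its quiescent libraries, and without it 4 fell in WT and 3 in KO. Among all 25771 genes tested, 11.5% rose and 18.3% fell. In *Cxcr4* KO cells 11 rose and 4 fell, where 13.3% of all genes rose and 20.4% fell. The median log2 fold change of the 40 genes was 0.33 in WT and 0.15 in KO, beside -0.92 and -0.96 for all genes tested and -0.59 and -0.66 for the protein-coding genes among them. The 40 genes were also better covered, with a median of the mean count of 548 in the WT comparison against 35.9 for all genes. With libraries scaled by their totals alone the median of all genes moved by -0.11 in either genotype, and the calls were 5 higher and 5 lower in WT and 8 higher and 4 lower in KO. Of all 25771 genes, 2245 were then called higher and 4681 lower in WT, and 2777 higher and 5130 lower in KO. The 5 lower in WT included a gene not called with the main scaling. That scaling ended the calls of *Ipo8*, *Nup188* and *Xpo7* in both genotypes and of *Ipo9*, *Kpnb1*, *Nup85*, *Nup93*, *Nup210* and *Xpo4* in WT. Without the filter on low counts the calls of *Ipo8* and *Xpo7* in both genotypes, of *Kpnb1* in WT and of *Nup188* in KO ended, and with a fit to the compared groups alone those of *Nup93* in WT and of *Kpna1* in KO. At the study's own thresholds, which add a log2 fold change over 1 and a mean count over 10, 5 rose and 4 fell in WT (9.65% and 16.5% of all genes) and 8 rose and 3 fell in KO (11.1% and 18.5%).

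Of these, 10 genes rose in both genotypes, as did 9.48% of all genes, and 4 fell in both, as did 14% of all genes. The 10 were 5 exportins, the importins *Kpna3*, *Ipo8* and *Ipo11*, and the nucleoporins *Nup188* and *Nup210*. The 4 were *Nup98*, *Nup210l*, *Kpna1* and *Kpna7*. *Kpna7* passed the filter on low counts only through its quiescent libraries, so that it could be called only lower. Without it *Nup98*, *Nup210l* and *Kpna1* remain. The libraries of each gene called did not overlap between the states. This also held for some genes not called, such as *Nup155* in both genotypes, and the share over all genes was not counted.

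**Figure D2:**
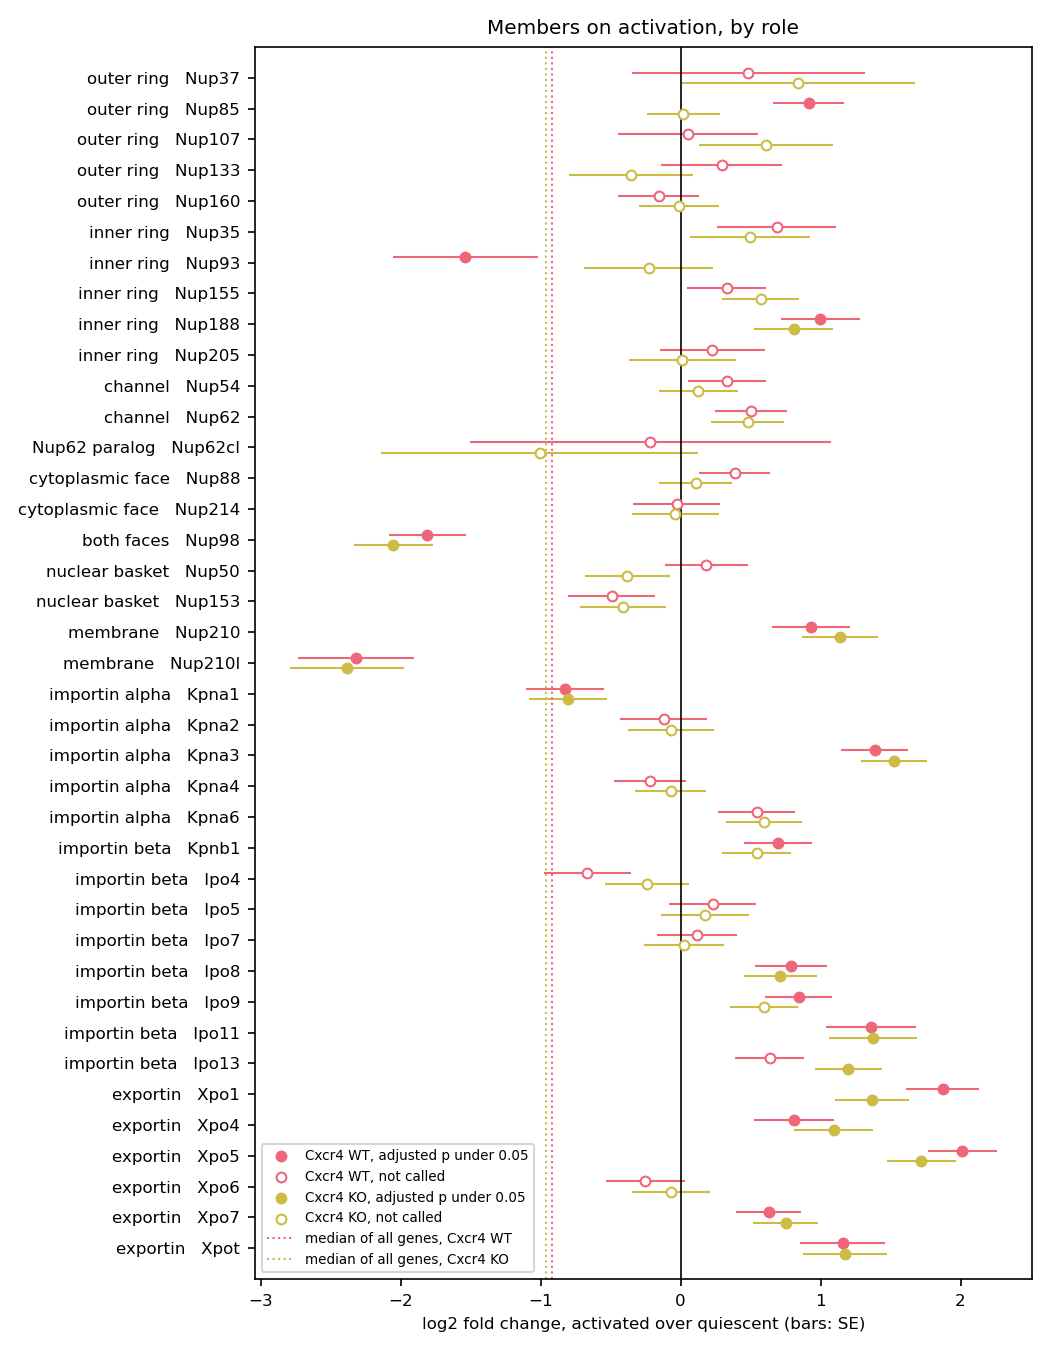
Log2 fold change of activated over quiescent cells for 39 genes ordered by role, in *Cxcr4* WT (red) and *Cxcr4* KO cells (yellow). Points are the fitted values, bars their SE, filled points have an adjusted p under 0.05, and dotted lines mark the median of all genes. *Kpna7* is not drawn because its activated libraries are all at 0, and 5 of 6 exportins are filled on the right in both genotypes.

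Of the exportins 5 of 6 rose in WT and the same 5 in KO, where 11.5% and 13.3% of all genes rose, with a median log2 fold change over the 6 of 0.98 and 1.13. Without KO activated replicate 1 the KO calls of *Xpo1*, *Xpo4*, *Xpo7* and *Xpot* ended, which left *Xpo5*. *Xpo5* (ENSMUSG00000067150, chromosome 17, 46202782 to 46243598, GRCm38) exports microRNA precursors. It was at 18.1, 17.4, 23.2 and 15.4 CPM in quiescent WT and at 21.2, 24.0, 21.1 and 28.1 CPM in quiescent KO libraries. In activated cells it was at 75.0 and 74.4 CPM in WT and at 89.1 and 66.4 CPM in KO libraries. Every activated library was thus more than 2-fold above every quiescent one. The log2 fold change was 2.01 ± 0.25 (SE, adjusted p = 4.22e-06, edgeR) in WT and 1.72 ± 0.24 (adjusted p = 2.11e-05, edgeR) in KO, the highest of the 40 genes in either genotype.

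*Xpo1* (ENSMUSG00000020290, chromosome 11, 23256041 to 23298249), the receptor of leucine-rich nuclear export signals, was at 32.8, 39.0, 29.6 and 38.9 CPM in quiescent WT and at 28.1, 38.7, 37.3 and 40.1 CPM in quiescent KO libraries. Activated WT libraries held 148 and 108 CPM and activated KO libraries 119 and 66.6 CPM. The quiescent libraries lay close together, and the activated libraries were spread widely, with KO replicate 2 the lowest of them. *Xpo1* rose by 1.87 ± 0.26 (SE, adjusted p = 1.92e-05, edgeR) in WT and by 1.37 ± 0.26 (adjusted p = 0.000465, edgeR) in KO on the log2 scale. Without KO activated replicate 1 the KO value was 0.88 and was no longer called. The difference between the genotypes was -0.51 (95% interval -1.31 to 0.29, adjusted p = 0.932, edgeR).

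*Xpot* (ENSMUSG00000034667, chromosome 10, 121587380 to 121626332) exports tRNA. It was at 46.0, 35.5, 42.9 and 72.3 CPM in quiescent WT and at 40.8, 40.9, 53.4 and 81.5 CPM in quiescent KO libraries, where replicate 4 was the highest of either genotype. Its activated libraries were at 105 and 115 CPM in WT and at 130.5 and 114 CPM in KO, all above the quiescent ones. The log2 fold change was 1.16 ± 0.30 (SE, adjusted p = 0.0066, edgeR) in WT and 1.18 ± 0.30 (adjusted p = 0.00519, edgeR) in KO. The KO value was 1.07 and not called without KO activated replicate 1.

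*Xpo4* (ENSMUSG00000021952, chromosome 14, 57577521 to 57665430), which exports a translation factor and Smad proteins, was at 32.8, 33.3, 34.1 and 46.4 CPM in quiescent WT and at 35.5, 31.9, 28.6 and 52.0 CPM in quiescent KO libraries. It was at 66.3 and 62.2 CPM in activated WT and at 102 and 56.1 CPM in activated KO libraries, where the lower value was close to the highest quiescent one. Its log2 fold changes were 0.81 ± 0.29 (SE, adjusted p = 0.0397, edgeR) in WT and 1.09 ± 0.28 (adjusted p = 0.00588, edgeR) in KO. The KO value was 0.60 and not called without KO activated replicate 1, and the WT call was lost without any of WT quiescent replicates 1, 2 and 3 and either activated WT library, at values of 0.77 to 0.91. *Xpo7*, a receptor with broad cargo, rose by 0.63 ± 0.23 (adjusted p = 0.0464, edgeR) in WT and by 0.75 ± 0.23 (adjusted p = 0.0169, edgeR) in KO, with fragile calls. The KO call was lost without either activated KO library, and the WT call without WT quiescent replicate 1, 2 or 3, KO quiescent replicate 3, either activated WT library or KO activated replicate 1, at 0.61 to 0.79. *Xpo6*, the exportin of actin, was not called, with log2 fold changes of -0.25 ± 0.28 in WT and -0.07 ± 0.28 in KO.

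The importin alphas moved apart from each other. *Kpna3* (ENSMUSG00000021929, chromosome 14, 61365211 to 61439874) was at 40.4, 41.6, 42.8 and 46.2 CPM in quiescent WT and at 45.8, 36.3, 39.3 and 48.6 CPM in quiescent KO libraries. It was at 98.8 and 125 CPM in activated WT and at 95.3 and 149 CPM in activated KO libraries, all well above the quiescent ones. *Kpna3* rose by 1.39 ± 0.24 (SE, adjusted p = 0.000173, edgeR) in WT and by 1.52 ± 0.24 (adjusted p = 5.54e-05, edgeR) in KO on the log2 scale.

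*Kpna1* (ENSMUSG00000022905, chromosome 16, 35978750 to 36037131) was at 164, 156, 208 and 228 CPM in quiescent WT and at 153, 153, 160.0 and 261 CPM in quiescent KO libraries, and at 104 and 109 CPM in activated WT and 113 and 95.6 CPM in activated KO libraries. All activated libraries lay below all quiescent ones. It fell by 0.83 ± 0.28 (SE, adjusted p = 0.0311, edgeR) in WT and by 0.80 ± 0.28 (adjusted p = 0.0321, edgeR) in KO on the log2 scale. These calls were near the threshold: the WT call was lost without WT quiescent replicate 3 or 4, either activated WT library or KO activated replicate 2, at -0.80 to -0.71, and the KO call without KO quiescent replicate 4 or either activated KO library, at -0.93 to -0.57.

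*Kpna7* (ENSMUSG00000038770, chromosome 5, 144983519 to 145084030), an importin alpha known from oocytes and early embryos, was at 2.87, 1.14, 1.45 and 1.16 CPM in quiescent WT and at 3.13, 3.62, 0.665 and 0.0470 CPM in quiescent KO libraries. It had 0 counts in all 4 activated libraries, which are shallower. Set against 3 counts over a group, it was at least 4.63-fold lower in activated than in quiescent WT cells and at least 5.15-fold lower in KO cells. Because it passed the filter only through its quiescent libraries, its test could go only this way, and no p is given for it.

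The other importin alphas were not called. *Kpna4* was at 192, 186, 252 and 294 CPM in quiescent WT and at 173 and 225 CPM in activated WT libraries, with 231, 211, 206 and 277 CPM and then 209.6 and 231 CPM in KO. *Kpna6* was at 55.4, 53.3, 60.7 and 72.0 CPM in quiescent WT and at 74.8 and 102 CPM in activated WT libraries, with 56.8, 43.3, 53.2 and 88.7 CPM and then 86.3 and 96.7 CPM in KO. *Kpna2*, which has 8 pseudogene copies that each held under 1% of the shared counts, was at 32.5, 38.5, 42.3 and 47.1 CPM in quiescent WT and at 38.6 and 35.0 CPM in activated WT libraries, with 40.0, 26.4, 35.2 and 44.1 CPM and then 48.3 and 21.2 CPM in KO. The states overlapped for *Kpna2* and *Kpna4* in both genotypes. The log2 fold changes in WT and KO were -0.22 ± 0.26 and -0.07 ± 0.26 (SE) for *Kpna4*, 0.54 ± 0.27 and 0.60 ± 0.27 for *Kpna6*, and -0.12 ± 0.31 and -0.07 ± 0.31 for *Kpna2*.

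Per length, the 6 importin alpha genes together were at 81.5 ± 13.4 CPM per kilobase (SD, n = 4) in quiescent WT and 86.8 ± 10.8 (n = 2) in activated WT cells, a difference within the spread between libraries. Their makeup shifted. *Kpna3* made up 12.4% ± 1.35 of that sum in quiescent WT and 29.9% ± 1.28 in activated WT cells, and 12.6% ± 1.06 and 31.1% ± 8.53 in KO cells. *Kpna1* went the other way, from 27.3% ± 0.914 to 14.6% ± 1.36 in WT and from 26.7% ± 2.89 to 13.5% ± 2.10 in KO cells. For both genes the quiescent and activated libraries did not overlap in this share, and with 4 against 2 libraries no test was run on it.

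**Figure D3:**
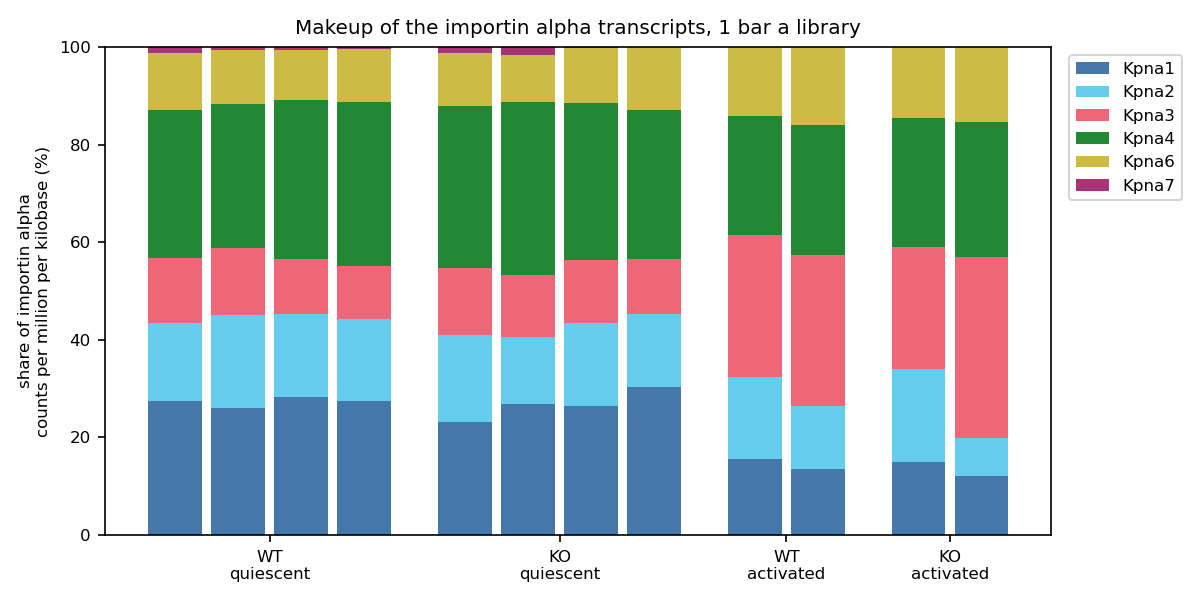
Share of each importin alpha gene in the summed CPM per kilobase of the 6 genes (vertical axis, percent), 1 bar a library, grouped by genotype and state. *Kpna3* takes 11.0% to 13.7% of the quiescent WT bars and 29.0% to 30.8% of the activated WT bars.

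Among the importin betas 4 of 8 rose in WT (*Kpnb1*, *Ipo8*, *Ipo9*, *Ipo11*) and 3 of 8 in KO (*Ipo8*, *Ipo11*, *Ipo13*), and none fell, where 11.5% and 13.3% of all genes rose. *Ipo11* (ENSMUSG00000042590, chromosome 13, 106794439 to 106936958), which imports ubiquitin-conjugating enzymes, was at 9.19, 7.80, 9.08 and 5.20 CPM in quiescent WT and at 9.13, 10.4, 8.81 and 7.22 CPM in quiescent KO libraries. It was at 16.2 and 24.5 CPM in activated WT and at 22.9 and 23.3 CPM in activated KO libraries, above every quiescent one. Its log2 fold change was 1.36 ± 0.32 (SE, adjusted p = 0.0031, edgeR) in WT and 1.38 ± 0.32 (adjusted p = 0.00218, edgeR) in KO, and without WT activated replicate 2 the WT value was 1.11 and not called.

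*Kpnb1* (ENSMUSG00000001440, chromosome 11, 97159714 to 97187881), which carries the importin alphas and their cargo through the pore, was at 205, 216, 237 and 282 CPM in quiescent WT and at 252, 216, 234 and 306 CPM in quiescent KO libraries. It was at 324 and 437 CPM in activated WT and at 418 and 316 CPM in activated KO libraries. The states did not overlap, and the activated KO library at 316 CPM was close to the highest quiescent one. The log2 fold change was 0.69 ± 0.24 (SE, adjusted p = 0.0383, edgeR) in WT and 0.54 ± 0.25 (adjusted p = 0.0929, edgeR) in KO. The difference between the genotypes, -0.15, was not called (adjusted p = 1, edgeR), and the WT call was lost without WT quiescent replicate 1, 2 or 3 or WT activated replicate 2, at 0.52 to 0.71. An antisense gene shares 7.07% of the exon bases of *Kpnb1*, and the sources used here do not say whether counting used strand.

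*Ipo8*, an importin whose cargo includes Argonaute proteins, rose by 0.79 ± 0.26 (adjusted p = 0.0277, edgeR) in WT and by 0.71 ± 0.26 (adjusted p = 0.0396, edgeR) in KO, with fragile calls. The WT call was lost without WT quiescent replicate 3 or 4 or either activated WT library, at 0.72 to 0.94, and the KO call without KO quiescent replicate 3 or 4 or any activated library, at 0.61 to 0.72. *Ipo9*, an importin of histones and ribosomal proteins, rose by 0.84 ± 0.24 (adjusted p = 0.0121, edgeR) in WT and was not called in KO, at 0.59 ± 0.24 (adjusted p = 0.0647, edgeR). Its WT call was lost without either activated WT library, at 0.92 and 0.90. *Ipo4*, *Ipo5* and *Ipo7*, importins of ribosomal proteins and histones, were not called in either genotype, with log2 fold changes from -0.67 to 0.23. Of the exon bases of *Ipo4*, 55.3% are shared with a neighbouring protein-coding gene on the same strand, so that its counts are uncertain.

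Of the nucleoporins 3 of 20 rose and 3 fell in WT, where 11.5% of all genes rose and 18.3% fell, and 2 rose and 2 fell in KO, where 13.3% rose and 20.4% fell, so that these shares were near those of all genes. *Nup98* (ENSMUSG00000063550, chromosome 7, 102119398 to 102210176) encodes a repeat-bearing nucleoporin and, from the same precursor, the outer ring protein Nup96. It was at 245, 222, 276 and 296 CPM in quiescent WT and at 277, 252, 246 and 346 CPM in quiescent KO libraries. It was at 85.3 and 62.2 CPM in activated WT and at 79.1 and 55.9 CPM in activated KO libraries, so that the highest activated library was below the lowest quiescent one by a wide margin. *Nup98* fell by 1.81 ± 0.28 (SE, adjusted p = 5.23e-05, edgeR) in WT and by 2.05 ± 0.28 (adjusted p = 1.40e-05, edgeR) in KO on the log2 scale, or 3.51-fold and 4.15-fold. In quiescent WT cells it was at 20.6 CPM per kilobase, the eighth level of the 41 genes, and in activated WT cells at 5.85 CPM per kilobase.

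The nucleoporins of the channel, the cytoplasmic face and the basket among the 41 genes were not called in either genotype. *Nup62*, of the channel, had log2 fold changes of 0.50 ± 0.26 (SE) in WT and 0.48 ± 0.26 in KO, and *Nup54*, also of the channel, 0.33 ± 0.28 and 0.13 ± 0.28. On the cytoplasmic face *Nup214* had -0.03 ± 0.31 and -0.04 ± 0.31, and *Nup88* 0.39 ± 0.26 and 0.11 ± 0.26. In the basket *Nup153* had -0.49 ± 0.31 and -0.41 ± 0.31, and *Nup50* 0.18 ± 0.30 and -0.38 ± 0.30.

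*Nup210* (ENSMUSG00000030091, chromosome 6, 91013068 to 91116829) spans the membrane at the pore and is known to be needed for muscle differentiation. It was at 21.7, 22.8, 20.9 and 14.8 CPM in quiescent WT and at 25.7, 27.1, 17.5 and 17.3 CPM in quiescent KO libraries, and at 35.8 and 40.7 CPM in activated WT and 54.5 and 41.7 CPM in activated KO libraries. All activated libraries lay above all quiescent ones. *Nup210* rose by 0.93 ± 0.28 (SE, adjusted p = 0.0163, edgeR) in WT and by 1.14 ± 0.27 (adjusted p = 0.00327, edgeR) in KO. The WT value was 0.90 and not called without WT activated replicate 2, and the KO value was 0.94 and not called without KO activated replicate 1. Its paralog *Nup210l* (ENSMUSG00000027939, chromosome 3, 90104132 to 90212048) went the other way. It was at 18.1, 21.2, 14.4 and 11.6 CPM in quiescent WT, 20.6, 18.1, 15.1 and 15.2 CPM in quiescent KO, 3.10 and 3.50 CPM in activated WT and 4.37 and 2.28 CPM in activated KO libraries. *Nup210l* fell by 2.32 ± 0.42 (adjusted p = 0.000266, edgeR) in WT and by 2.38 ± 0.41 (adjusted p = 0.000156, edgeR) in KO.

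In the scaffold, *Nup188* of the inner ring (ENSMUSG00000052533, chromosome 2, 30286397 to 30344266) was at 32.1, 27.0, 21.4 and 20.8 CPM in quiescent WT and at 28.1, 19.3, 32.8 and 32.6 CPM in quiescent KO libraries. It was at 53.6 and 47.3 CPM in activated WT and at 60.6 and 38.3 CPM in activated KO libraries, all above the quiescent ones. Its log2 fold change was 1.00 ± 0.28 (SE, adjusted p = 0.0117, edgeR) in WT and 0.81 ± 0.28 (adjusted p = 0.0337, edgeR) in KO. The KO value was 0.44 without KO activated replicate 1 and 0.69 without KO quiescent replicate 2, and the WT value 0.98 without WT activated replicate 1, none of them called. Overlapping genes share 12.4% of its exon bases. *Nup93*, which links the inner ring to the channel, was called lower in WT, at -1.54 ± 0.52 (adjusted p = 0.0309, edgeR), but WT activated replicate 2 had 1 count of it, and without that library the value was -0.84 and not called. The call was also lost without WT quiescent replicate 2 or 3, at -1.51 and -1.43, and without WT activated replicate 1 the value was -4.02. The other 3 genes of the inner ring and 4 of the 5 tested genes of the outer ring were not called in either genotype, with log2 fold changes from -0.36 to 0.84.

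**Figure D4:**
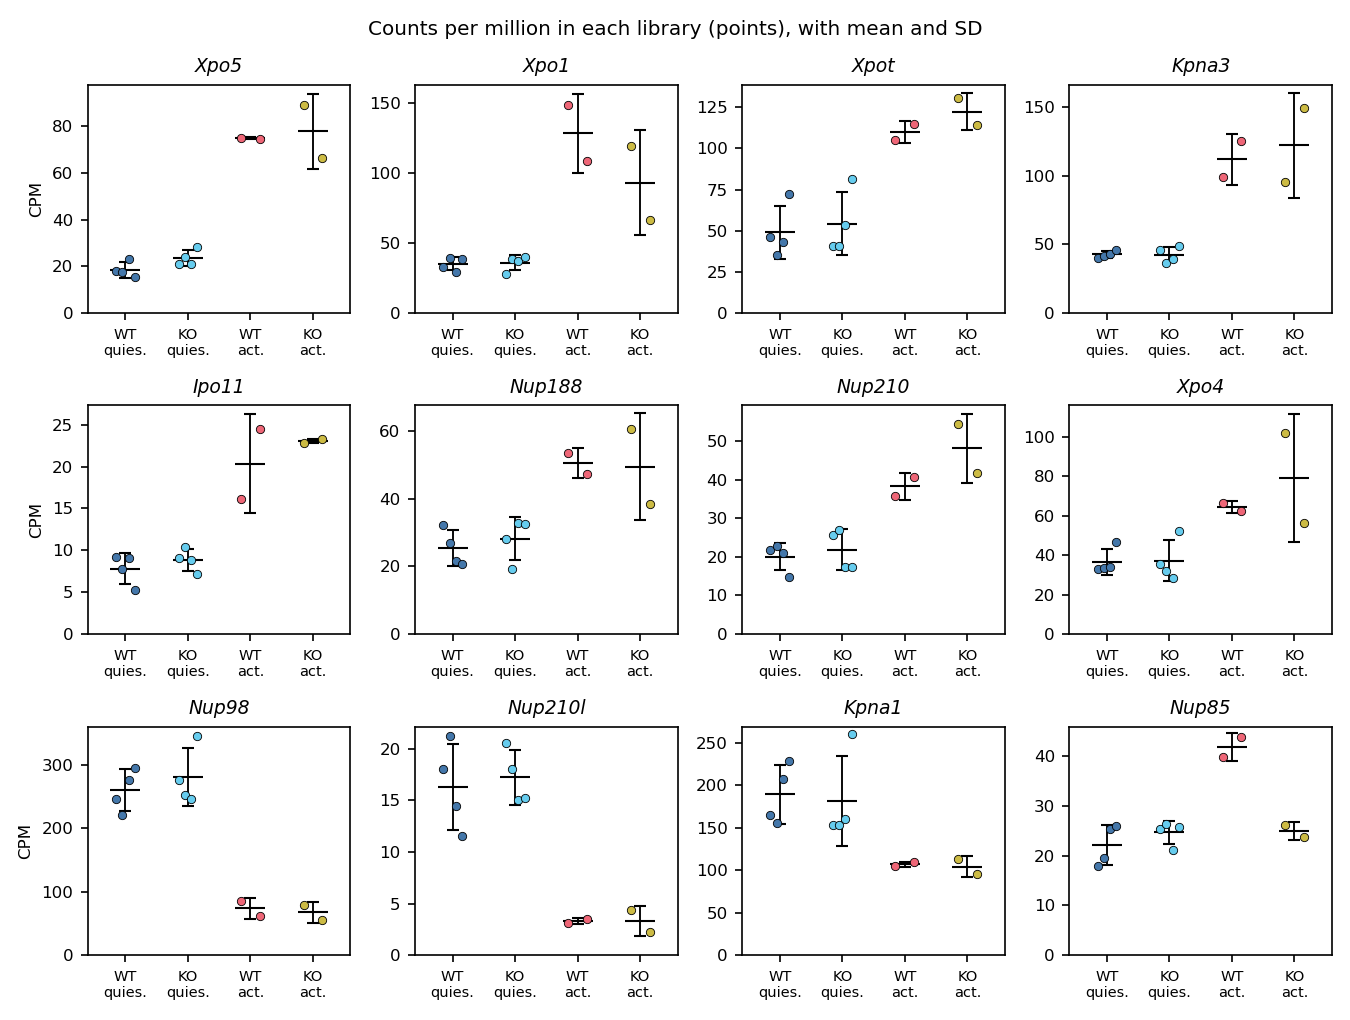
CPM in each library (points) for 12 genes, with the mean (bar) and SD (whiskers) of *Cxcr4* WT and KO cells, quiescent (4 libraries each) and activated (2 each), on linear axes from 0. The first 8 panels rise in activated cells of both genotypes, *Nup98*, *Nup210l* and *Kpna1* fall, and *Nup85* is higher in activated WT than in activated KO libraries.

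Across the alternatives run, *Xpo5*, *Kpna3*, *Nup98* and *Nup210l* kept their direction and their call in both genotypes. None of the 40 genes was shown to respond differently in the 2 genotypes: 0 were called for the difference of the responses by edgeR or DESeq2 (0% of all genes by edgeR), and 1, *Nup85*, had an unadjusted p under 0.05, beside 6.59% of all genes.

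The second comparison asked what loss of *Cxcr4* did to these genes. In quiescent cells 0 of 40 were called by edgeR (0.0155% of all genes), 0 had an unadjusted p under 0.05 (1.74% of all genes), and DESeq2 called 0. In activated cells 0 of 40 were called by edgeR (0.0504% of all genes), 2 had an unadjusted p under 0.05 (8.37% of all genes), and DESeq2 called 0. For 36 of 40 genes in quiescent cells the 95% interval of the KO effect lay within a 2-fold change in either direction. In activated cells this held for 23 of the 39 genes with counts there, and for the others a larger change is not excluded by the interval. The 4 genes with wider intervals in quiescent cells were *Nup37*, *Nup62cl*, *Nup107* and *Kpna7*.

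**Figure D5:**
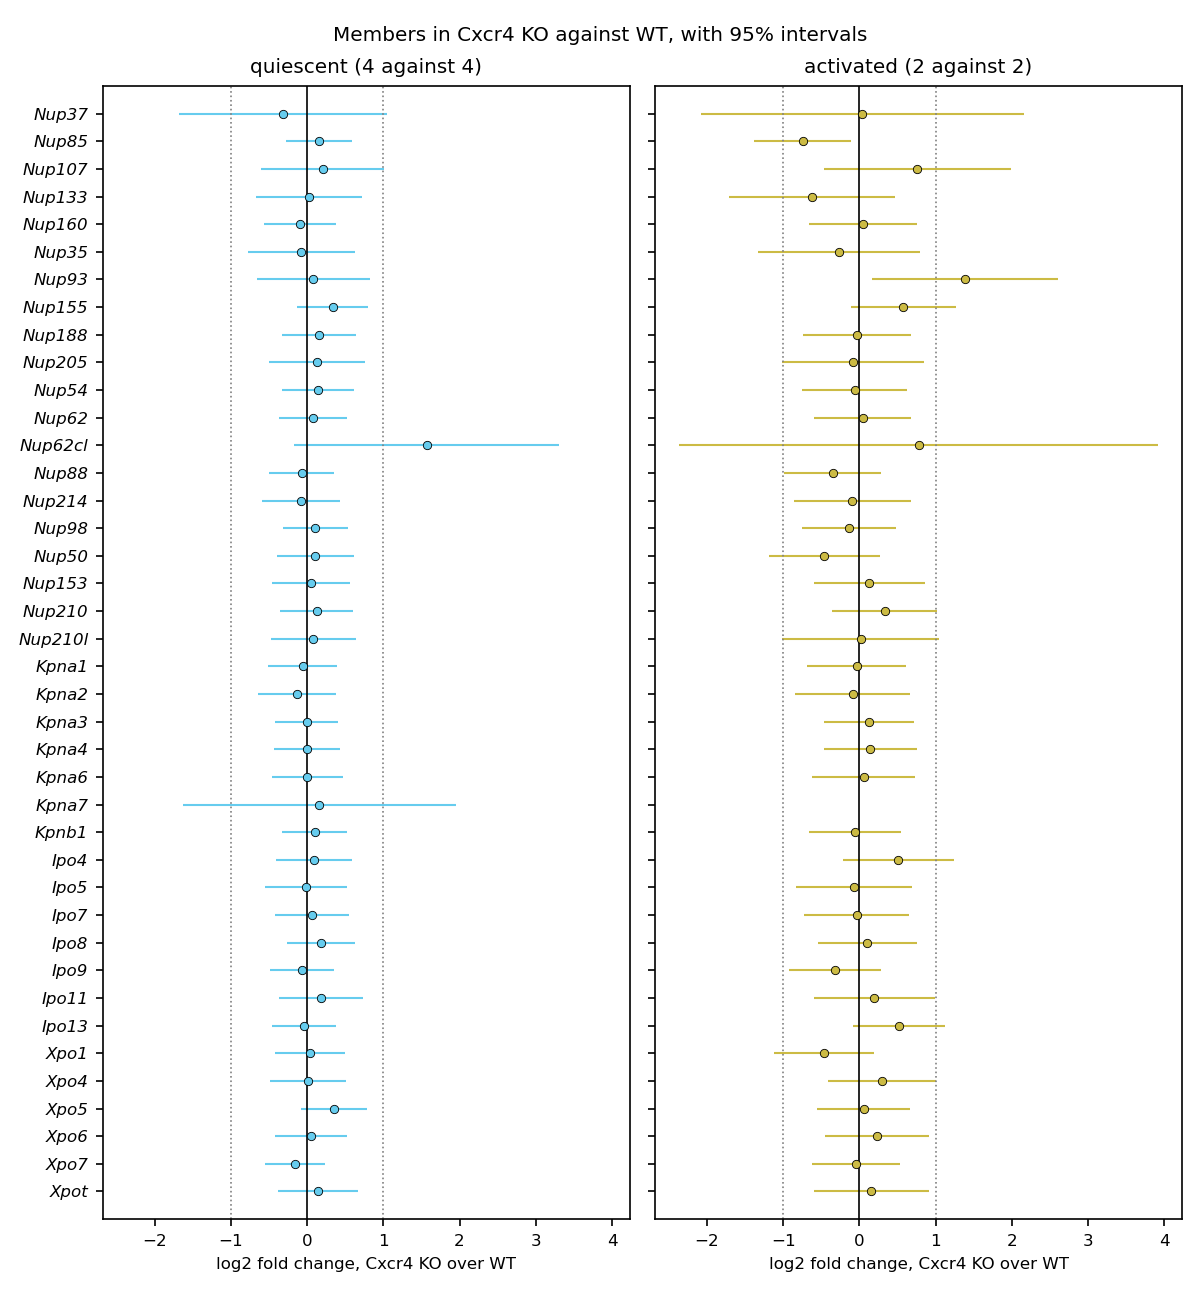
Log2 fold change of *Cxcr4* KO over WT with its 95% interval for 40 genes in quiescent cells (left, 4 libraries against 4) and 39 genes in activated cells (right, 2 against 2). Dotted lines mark a 2-fold change, which 36 of the intervals on the left and 23 on the right do not reach.

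The 3 smallest p-values in quiescent cells belonged to *Nup62cl*, *Xpo5* and *Nup155*. *Nup62cl* was at 0.522, 0.568, 0.658 and 0.578 CPM in WT and at 1.56, 1.16, 0.415 and 3.83 CPM in KO libraries, where 1 library lay below and 3 above all WT libraries. Its log2 fold change was 1.57 ± 0.83 (SE, adjusted p = 1, edgeR), and 0.83 without KO quiescent replicate 4. *Xpo5*, given above, had 0.35 ± 0.21 (adjusted p = 1, edgeR). *Nup155*, a scaffold protein of the inner ring, was at 12.9, 16.0, 12.7 and 13.8 CPM in WT and at 15.8, 20.7, 18.4 and 14.9 CPM in KO libraries, which overlap. It had 0.33 ± 0.22 (adjusted p = 1, edgeR).

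In activated cells they belonged to *Nup85*, *Nup93* and *Ipo13*. *Nup85* (ENSMUSG00000020739, chromosome 11, 115564434 to 115583985), a scaffold protein of the outer ring, was at 39.9 and 43.8 CPM in activated WT and at 26.2 and 23.7 CPM in activated KO libraries. The quiescent libraries were at 17.9, 19.4, 25.3 and 25.9 CPM in WT and at 25.4, 26.4, 21.1 and 25.7 CPM in KO, so that the activated KO libraries lay at the quiescent level. The KO effect in activated cells was -0.74 ± 0.31 (SE, 95% interval -1.38 to -0.10, adjusted p = 0.511, edgeR). On activation *Nup85* rose by 0.91 ± 0.25 (adjusted p = 0.00982, edgeR) in WT and stood at 0.02 ± 0.26 (adjusted p = 0.96, edgeR) in KO. The difference of these, -0.90 (95% interval -1.67 to -0.13), was not called (adjusted p = 0.694, edgeR), and without WT activated replicate 2 the WT value was 0.91 and not called.

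*Nup93* was at 4.08 and 0.438 CPM in activated WT and at 6.93 and 6.84 CPM in activated KO libraries, beside 6.06, 7.73, 9.26 and 7.51 CPM in quiescent WT and 7.93, 9.63, 6.81 and 7.98 CPM in quiescent KO libraries. The WT library with 1 count stood apart from the others. The KO effect in activated cells was 1.39 ± 0.58 (SE, adjusted p = 0.528, edgeR). It was 3.86 without WT activated replicate 1 and 0.68 without WT activated replicate 2, and was not called in either case. *Ipo13*, which both imports and exports cargo, was at 59.5 and 91.5 CPM in activated WT and at 101 and 115 CPM in activated KO libraries, from 44.7, 41.2, 54.3 and 53.0 CPM in quiescent WT and 43.7, 43.2, 44.6 and 56.2 CPM in quiescent KO libraries. Its KO effect in activated cells was 0.52 ± 0.29 (adjusted p = 0.664, edgeR). On activation it rose by 1.20 ± 0.24 (adjusted p = 0.000692, edgeR) in KO and had 0.64 ± 0.25 (adjusted p = 0.0568, edgeR) in WT, a difference of 0.56 that was not called (adjusted p = 0.861, edgeR). Beside these results, the 6 genes of cycling cells summed to 85.4 and 91.2 CPM in activated WT and to 15.5 and 17.7 CPM in activated KO libraries, with *Ccnb1* at 0 in both and *Cdk1* at 0 in KO. In quiescent libraries the same genes summed to 68.9 to 151 CPM in WT and to 76.7 to 168 CPM in KO. The sum joins genes that moved apart. On activation in WT *Rrm2* rose by 1.30 ± 0.34 (adjusted p = 0.00608, edgeR) and *Top2a* fell by 1.56 ± 0.56 (adjusted p = 0.0402, edgeR). *Mki67*, *Cdk1* and *Mcm4* were not called there, at -1.22, -1.23 and -0.03. In KO *Rrm2*, *Top2a*, *Mki67* and *Mcm4* all fell, at -1.78, -3.44, -3.92 and -2.43. The part of cycling cells was not tested.

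Other genes of the pathway, 30 in 4 lists, were read in the same fits, and 28 of them passed the filter. The lists hold *Ranbp1*, a widely expressed gene listed at 0 counts in every library, and *Nupl1*, which failed the filter. *Nupl1* was at 0 to 1.435 CPM in quiescent and at 0 in activated libraries. For neither gene was a failure of the counting tested, so that these levels are uncertain. On activation 11 of 28 rose and 1 fell in WT, and 10 rose and 1 fell in KO, with a median log2 fold change of 0.53 in both. Among all genes 11.5% rose and 18.3% fell in WT and 13.3% rose and 20.4% fell in KO, with medians of -0.92 and -0.96. KO against WT called 0 of 28 in either state in edgeR's test. Without KO activated replicate 1 the calls in KO were 3 higher and 0 lower.

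Of the genes that run the Ran cycle, 3 of 5 tested rose in WT (*Ran*, *Rcc1*, *Ranbp3*) and 4 in KO (with *Nutf2*), where 11.5% and 13.3% of all genes rose. The calls of *Ranbp3* were fragile. Its WT call was lost with library totals alone and without WT quiescent replicate 1 or 2, at 0.67 to 0.69. Its KO call was lost with library totals alone, without the filter and without KO quiescent replicate 1, 2 or 3, at 0.67 to 0.74. *Rcc1*, which charges Ran with GTP on chromatin, was at 26.4, 27.7, 28.3 and 27.4 CPM in quiescent WT and at 118 and 124 CPM in activated WT libraries. It was at 38.4, 38.7, 42.7 and 48.5 CPM in quiescent KO and at 137 and 68.9 CPM in activated KO libraries. All activated libraries lay above the quiescent ones, and *Rcc1* rose by 2.14 ± 0.25 (SE, adjusted p = 2.78e-06, edgeR) in WT and by 1.29 ± 0.25 (adjusted p = 0.000531, edgeR) in KO. Without KO activated replicate 1 the KO value was 0.71 and not called. The difference of the responses, -0.85 ± 0.37, was not called (adjusted p = 0.715, edgeR). In quiescent cells *Rcc1* had a log2 fold change of 0.62 ± 0.21 in KO against WT, which was not called.

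*Ran* itself was at 183, 199, 260 and 329 CPM in quiescent WT and at 555 and 499 CPM in activated WT libraries, and rose by 1.12 ± 0.28 (adjusted p = 0.00462, edgeR) in WT and by 0.99 ± 0.28 (adjusted p = 0.00977, edgeR) in KO. Without KO activated replicate 1 the KO value was 0.77 and not called. *Rangap1*, which makes Ran hydrolyse GTP in the cytoplasm, was not called, at 0.70 ± 0.34 in WT and 0.20 ± 0.34 in KO. *Nutf2*, which brings Ran back into the nucleus, had -0.21 ± 0.44 (adjusted p = 0.723, edgeR) in WT and rose by 1.10 ± 0.40 (adjusted p = 0.0407, edgeR) in KO. The difference, 1.31 ± 0.61, was not called (adjusted p = 0.739, edgeR), and the KO call was lost without KO quiescent replicate 1, 2 or 3 or either activated KO library, at 0.76 to 1.38, and with library totals alone, at 1.00. *Cse1l*, the exportin that returns importin alpha to the cytoplasm, was not called, at -0.27 ± 0.31 in WT and -0.49 ± 0.31 in KO.

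Among other genes of the pore, 4 of 11 tested rose in WT (*Gle1*, *Ndc1*, *Nupl2*, *Rae1*) and 2 in KO (*Ndc1*, *Rae1*), and none fell. The KO call of *Ndc1* was lost with library totals alone, without the filter and with a fit to the compared groups alone, at 0.79 to 0.90. It was also lost without KO quiescent replicate 2, at 0.75. The WT call of *Gle1* was lost with library totals alone and without WT quiescent replicate 1, at 0.82 and 0.85. *Nupl2* was at 0.522, 2.27, 3.07 and 1.20 CPM in quiescent WT and at 11.9 and 8.32 CPM in activated WT libraries, and rose by 2.53 ± 0.61 (adjusted p = 0.00389, edgeR) there, while in KO it had 0.93 ± 0.65 (adjusted p = 0.258, edgeR). The difference, -1.60 ± 0.92, was not called (adjusted p = 0.824, edgeR), and without WT activated replicate 1 the WT value was 2.31 and not called. *Tpr*, of the basket, and *Ranbp2*, of the cytoplasmic filaments, were not called, at -0.60 ± 0.28 and -0.45 ± 0.31 in WT. The other karyopherins rose in 2 of 4 cases in both genotypes (*Tnpo2*, *Tnpo3*). In mRNA export 2 of 8 rose (*Ddx19a*, *Nxt1*) and 1 fell in both genotypes. The KO call of *Ddx19a* was near the threshold, at 0.62 ± 0.24 (adjusted p = 0.0495, edgeR). It was lost under many alternatives, among them library totals alone, no filter on low counts and leaving out KO quiescent replicate 2, 3 or 4. Its values in these were 0.51 to 0.62. The gene that fell was *Nxf1*, the main mRNA export receptor, which was at 289, 267, 418 and 457 CPM in quiescent WT and at 175 and 124 CPM in activated WT libraries. *Nxf1* fell by 1.26 ± 0.31 (adjusted p = 0.00439, edgeR) in WT and by 1.15 ± 0.31 (adjusted p = 0.00732, edgeR) in KO. The WT call was lost without WT activated replicate 2, at -0.98, and the KO call without either activated KO library, at -1.24 and -1.05. *Thoc1*, of a complex that couples transcription to export, was not called, at -0.73 ± 0.38 in WT and 0.14 ± 0.35 in KO.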

How the data were processed

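Raw counts for 12 libraries were deposited by the authors, 1 column a library. The authors trimmed reads with Trim Galore 0.6.0 and mapped them with STAR 2.7.2a to GRCm38.p6 (versions from the submitters' processing notes), and counted them on GENCODE release 25 genes with Rsubread. How reads with several matches or on the opposite strand were counted is not given in the sources used here. The authors also deposited FPKM, 1 value per group (how libraries were combined is not stated), used only as another scale for levels. Coordinates and exon overlaps are from GENCODE release 21 on GRCm38, and promoter windows from RefSeq.

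Counts of all 55401 genes were filtered with filterByExpr, which left 25771, scaled by TMM and fitted in 1 quasi-likelihood model of the 4 groups (edgeR 4.0.16, R 4.3.3), with Benjamini-Hochberg adjustment over all genes tested. Called means an adjusted p under 0.05. The SE is the fold change over the root of its F statistic. CPM are TMM-scaled. The fits were tested on simulated data. DESeq2 1.42.0 was an alternative, beside other scalings, filters, sample choices, a replicate block and leaving out each library. Intervals and the floor of 3 counts cover the variation modelled or counting error only.

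The genes, lists and tests were chosen with earlier results of these data known. Values by library are given for genes called in KO against WT or, with none, the 3 smallest p-values in each state. They are given for up to 8 genes highest and 8 lowest among those called in the same direction in both genotypes on activation. All importin alphas, *Kpnb1* and *Xpo1* have them as well. For *Nup43*, which failed the filter, a range of counts is given. The other pathway genes named include those of the Ran cycle and the 2 highest and 2 lowest of the lists. Of these, *Rcc1* has values by library in both genotypes, *Ran*, *Nupl2* and *Nxf1* have them in WT alone, and others have fold changes only.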

Additional observations from a re-analysis of the deposited data

Results flagged for a closer look

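In 5 of the 82 groups of 4 quiescent libraries examined, over the 41 genes and both genotypes, the highest library stood apart from the other 3 by more than Dixon's 95% limit, where chance gives about 1 in 20 for independent groups. In quiescent KO cells these were *Ipo13* at 56.2 CPM, *Ipo5* at 348 CPM, *Nup50* at 113 CPM and *Kpna1* at 261 CPM, each in replicate 4. In quiescent WT cells it was *Xpo4* at 46.4 CPM, also in replicate 4. All 5 thus lay in replicate 4, and groups taken from the same libraries are not independent, so that 1 in 20 is no measure for them.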

How the results depend on the processing

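No comparison of KO with WT, and no difference between the genotypes' responses, called any of the 40 genes under an alternative. On activation 80 of 92 repeats of the counts stayed within 1.5 times. In 915 repeats of single fold changes and levels no fold change reversed its direction. These repeats covered only genes called on activation, the smallest p-values of KO against WT and the highest levels. Fold changes on activation that were not called were not checked in this way. In WT, 18 were called, against 9 at the study's thresholds and 10 with library totals alone, and 7 to 19 when 1 library was left out (7 without WT activated replicate 2, 11 without WT quiescent replicate 3). In KO, 15 were called, against 6 to 16 when 1 library was left out (6 without KO activated replicate 1). Leaving out both activated replicate 2 libraries, richest in ribosomal RNA, an alternative chosen after seeing the data, gave 6 in WT and 11 in KO. Of the other pathway genes, 11 were called in KO, against 6 at the study's thresholds, 7 with library totals alone, 6 without both libraries, and 3 to 11 when 1 was left out (3 and 6 without KO activated replicate 1 or 2, 7 without KO quiescent replicate 2). Fewer samples or stricter thresholds enter all of these but the totals, whose cause was not tested.

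Same-numbered libraries deviated together with r of -0.27 to 0.59 in quiescent and -0.07 in activated cells. Not every library correlated best with its own number, and the highest value, 0.59, was that of the quiescent replicate 4 libraries. With 2 activated libraries a group, each pair gave 0.07 or -0.07, so that r cannot show a pairing there. Whether libraries with the same number shared a preparation or run was not tested. With a replicate block, 19 genes were called in WT and 16 in KO, with the calls of *Ipo8*, *Nup93* and *Nup210* in WT and of *Ipo8*, *Kpna1* and *Nup188* in KO ended. Activated libraries held at most 5427280 counts, which limits genes at a few CPM, such as *Nup37*, *Nup62cl* and *Nup93*.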
